A study of Mus musculus with 18 samples.

Results

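Mesothelin (Msln), its binding partner Muc16 and the 5 uroplakin genes Upk1a, Upk1b, Upk2, Upk3a and Upk3b were followed through polyadenylated RNA of mouse mammary epithelial organoids. The 7 genes were taken by symbol from gene tables of 56691 rows in the estradiol experiment and 56893 rows in the Torin experiment, and all 7 had a row in both. The genes were chosen by symbol, as a family, with their counts and levels in these 6 groups already in view, so what is given here describes these libraries and is no independent support for a change in the family. Of the 7 genes, 4 passed the filter on low counts in the estradiol experiment (Msln, Muc16, Upk1b, Upk3a) and 5 in the Torin experiment (these and Upk2).

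The organoids were grown from epithelial cells of mammary glands of wild-type C57BL/6 mice, 3 nulliparous adults by the series text, in 2 experiments with 6 groups of 3 libraries. In the first, organoids of mice aged about 24 weeks were cultured for 12 days and received either 10 nM estradiol or its vehicle, ethanol, for 11 days. In the second, organoids of mice aged about 15 weeks were cultured for 18 days in Matrigel droplets and received either 100 nM Torin, named Torin 1 in the series text, or its vehicle, DMSO, in the arms D6 and D12. Estradiol is the main ligand of the oestrogen receptors, and Torin 1 inhibits the kinase mTOR in both of its complexes. By the sample titles D6 means 6 days of treatment and D12 means 12 days, and by the series text it is the reverse. Each arm has its own batch tag, which repeats the day number of the title and names no separate processing batch. Treatment length, its start and any batch difference cannot be told apart, and the arms are named here only D6 and D12. No source says whether the libraries of a group came from separate cultures or animals, so p-values measure the spread between these libraries, which may be technical.

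Uroplakins are the membrane proteins of the urothelium, where they assemble into rigid plaques on the apical face of the umbrella cells that line the bladder. The tetraspanin-like Upk1a pairs with Upk2, and the related Upk1b pairs with Upk3a or Upk3b, and most uroplakins leave the endoplasmic reticulum only as such pairs. Mesothelin is a surface glycoprotein held by a lipid anchor, made by the mesothelium and by many carcinomas, and it binds the very large transmembrane mucin Muc16. None of these genes is a standard marker of a mammary epithelial lineage.

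The promoter of Upk3a is shown because this gene fell in all 3 treatment comparisons. The 250 bases before its RefSeq start lie at chr15:85016891-85017140 on the plus strand of GRCm38.p6, a build other than the GRCm39 named by the submitters, and capitals mark GGGCGG, the GC box.
Upk3a promoter: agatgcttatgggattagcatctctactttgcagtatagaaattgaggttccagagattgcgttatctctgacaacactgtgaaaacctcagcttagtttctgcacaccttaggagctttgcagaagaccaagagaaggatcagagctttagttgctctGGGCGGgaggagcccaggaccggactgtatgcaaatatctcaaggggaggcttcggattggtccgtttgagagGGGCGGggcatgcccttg
The GC box occurs 2 times on the plus strand, beginning 91 and 18 bases before the start, and 32.7% of 32851 RefSeq promoter windows of the same length hold it on either strand. It was looked for only after the sequence had been read. No match on either strand of this window was found for CATTCC (the TEAD motif, held by 12.6% of all windows), for GGTCA (a nuclear receptor half-site, 35.2%), for CACGTG (the E-box, 6.02%), for TGANTCA (the AP-1 motif, 6.75%), for CCGGTT (a grainyhead half-site, 5.62%) or for CACCC (a KLF motif, 52.0%).

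Library totals ranged from 20637473 to 24312079 counts in the estradiol experiment and from 23239364 to 28910688 counts in the Torin experiment. Levels are given as CPM, counts scaled to a common library total, which is not corrected for transcript length and is not compared between genes. The epithelial markers that define luminal and basal mammary cells were present in every group, with Krt8 at mean levels from 1079 CPM in Torin D12 to 2539 CPM in Torin D6 organoids and Krt5 from 75.3 CPM in Torin D6 to 3990 CPM in ethanol organoids. In bulk RNA, fewer cells of a type and less RNA per cell cannot be told apart.

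**Figure D1:**
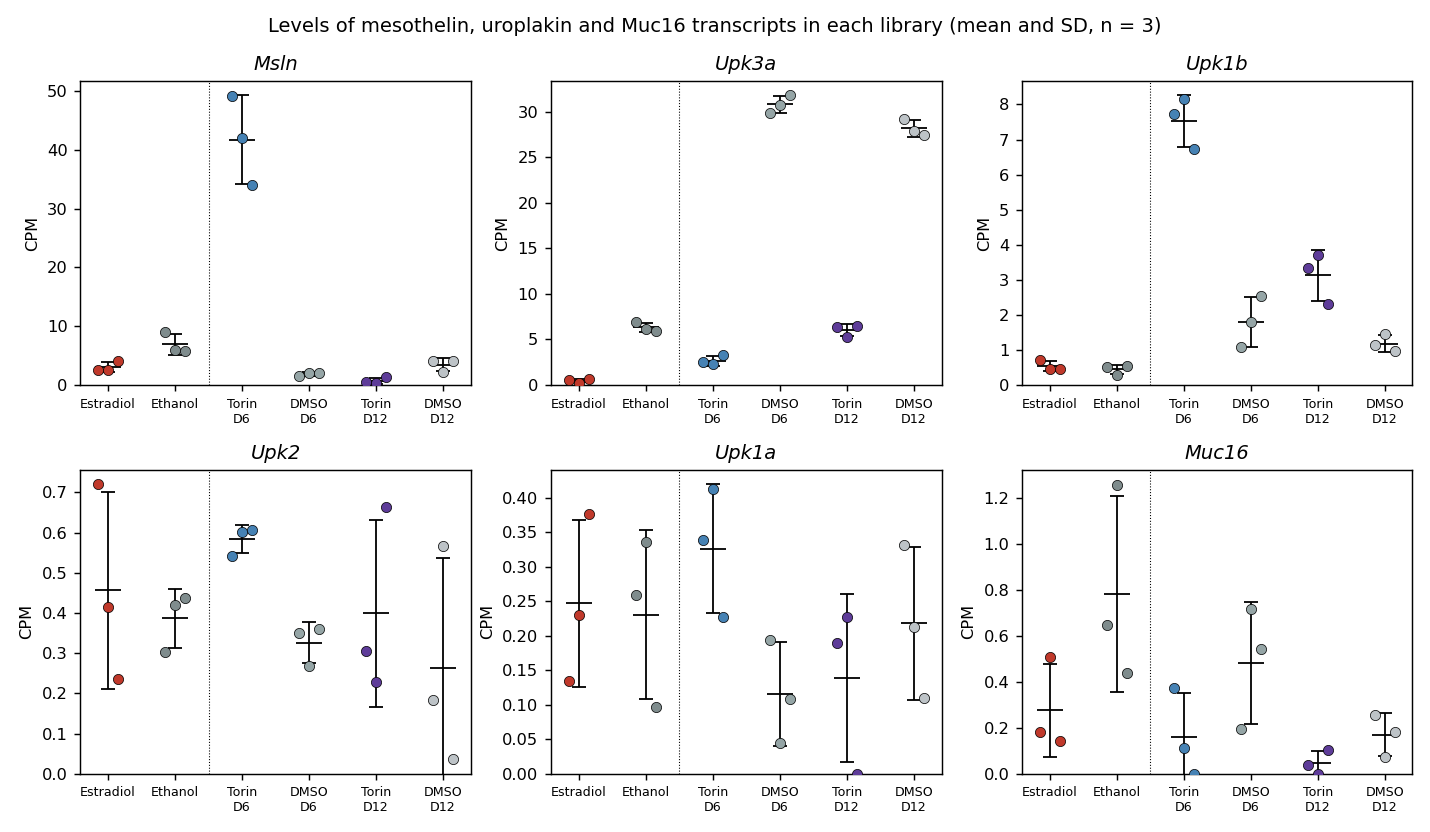
CPM of 6 of the genes in each library; points are libraries in the order of their replicate number, bars the mean and SD of 3 libraries, and the dotted line separates the 2 experiments. Msln stands at 34.1 to 49.1 CPM in Torin D6 organoids and at no more than 8.96 CPM in any other library, and Upk3a is lower in every treated group than in its vehicle group.

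Msln, which encodes the anchored surface glycoprotein mesothelin, moved in opposite directions in the Torin arms. It had 49.1, 42.0 and 34.1 CPM in the 3 Torin D6 libraries, against 1.48, 2.10 and 2.09 CPM in the DMSO D6 libraries. All 3 Torin libraries lay far above all 3 DMSO libraries, with 897 to 1447 counts against 38 to 58. The log2 fold change was 4.46 (SE 0.38), a 22.0-fold rise, with an adjusted p of 3.24e-06 in edgeR's quasi-likelihood test (adjusted over all tested genes by the Benjamini-Hochberg method, as everywhere below). The rise ranked number 53 among the 18112 genes tested.

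In the D12 arm Msln fell. Its level was 0.456, 0.417 and 1.33 CPM in Torin D12 libraries, against 4.16, 2.16 and 4.08 CPM in DMSO D12 libraries. The groups did not overlap, and the third Torin library, with 38 counts, stood above the other two, with 12 and 11 counts. The log2 fold change was −2.22 (SE 0.40; adjusted p = 0.00167 in edgeR's quasi-likelihood test), and it was −2.98 (SE 0.36) without this Torin library. The difference between the Torin effects, D12 minus D6, was −6.68 on the log2 scale (SE 0.54; adjusted p = 2.19e-05, same test), the 10th lowest among the genes tested. Without the third Torin D12 library this difference was −7.44.

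Estradiol also lowered Msln. Estradiol organoids had 2.56, 2.49 and 4.09 CPM, against 8.96, 5.97 and 5.83 CPM in ethanol organoids. The groups did not overlap, although the highest estradiol library and the lowest ethanol library were closer to each other than the first ethanol library was to either of its replicates. The log2 fold change was −1.19 (SE 0.21; adjusted p = 0.000562 in edgeR's quasi-likelihood test), a level 2.27-fold lower.

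Within the Torin experiment the mean level of Msln was highest in Torin D6 (41.7 ± 7.51 CPM), followed by DMSO D12 (3.47 ± 1.13), DMSO D6 (1.89 ± 0.358) and Torin D12 organoids (0.734 ± 0.516; SD, n = 3 each). The vehicle groups, neighbours in this order, had values that did not overlap, but their difference, DMSO D12 over DMSO D6, did not pass the test (log2 0.87, SE 0.36, edgeR adjusted p = 1). DMSO D6 and Torin D12, the next neighbours, did not overlap and were not tested against each other. In the estradiol experiment Msln averaged 3.05 ± 0.903 CPM in estradiol and 6.92 ± 1.77 CPM in ethanol organoids (SD, n = 3 each).

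Muc16, the mucin that mesothelin binds, was too low for a firm statement. The estradiol libraries held 4, 11 and 3 counts of it, against 15, 30 and 9 counts in the ethanol libraries. The groups overlapped, since the second estradiol library exceeded the third ethanol library. The fit gave a log2 fold change of −1.50 (SE 0.53; adjusted p = 0.0421 in edgeR's quasi-likelihood test), but DESeq2 gave an adjusted p of 0.121, and leaving out any of 4 of the 6 libraries (the first or second ethanol, the first or the third estradiol) ended the call with log2 values from −1.62 to −0.97.

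In the Torin experiment Muc16 had 11, 3 and 0 counts in Torin D6 libraries, against 5, 16 and 15 counts in DMSO D6 libraries. Torin D12 libraries had 1, 0 and 3 counts, against 7, 2 and 5 counts in DMSO D12 libraries. The groups overlapped in both arms, and neither difference passed edgeR's quasi-likelihood test (D6 log2 −1.51, SE 0.89, adjusted p = 0.203; D12 log2 −1.71, SE 1.16, adjusted p = 0.329). The ratio of summed counts in D12 was 0.290, with a 95% exact conditional binomial interval of 0.0696 to 0.925 that covers counting error only.

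Upk3a, the uroplakin that partners Upk1b in the plaque, was the gene of the family that fell in every treatment comparison. Estradiol libraries had 0.540, 0.277 and 0.611 CPM (12, 6 and 13 counts), against 6.92, 6.09 and 5.93 CPM in ethanol libraries (160, 145 and 122 counts). Every ethanol library stood far above every estradiol library, and the replicates of the ethanol group lay close together. The log2 fold change was −3.72 (SE 0.24), a level 13.1-fold lower, with an adjusted p of 3.29e-08 in edgeR's quasi-likelihood test. This was the 6th largest fall among 15358 genes tested.

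Under Torin the level of Upk3a was 2.48, 2.25 and 3.27 CPM in the D6 arm, against 29.9, 30.7 and 31.8 CPM in DMSO D6 libraries. The groups were widely separated, and the log2 fold change was −3.53 (SE 0.15; adjusted p = 1.58e-08 in edgeR's quasi-likelihood test), a level 11.5-fold lower. In the D12 arm Torin libraries had 6.39, 5.27 and 6.47 CPM, against 29.2, 27.9 and 27.4 CPM in DMSO libraries. The groups were again far apart, and the log2 fold change was −2.22 (SE 0.14; adjusted p = 1.36e-06, same test), a level 4.65-fold lower.

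The fall of Upk3a was smaller in D12 than in D6: the difference of the Torin effects was 1.31 on the log2 scale (SE 0.19; adjusted p = 0.00122 in edgeR's quasi-likelihood test). The DMSO groups averaged 28.1 ± 0.908 CPM in D12 and 30.8 ± 0.956 CPM in D6 (SD, n = 3 each) and did not overlap, with a log2 difference, DMSO D12 over DMSO D6, of −0.13 (95% interval −0.38 to 0.12; adjusted p = 1). In order, the mean levels of Upk3a in the Torin experiment ran from DMSO D6 through DMSO D12 and Torin D12 (6.04 ± 0.672 CPM) to Torin D6 organoids (2.67 ± 0.532 CPM), and no neighbouring groups overlapped.

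Upk1b, the tetraspanin-like partner of Upk3a, rose in both Torin arms. Its level was 7.73, 8.15 and 6.72 CPM in Torin D6 libraries, against 1.09, 1.79 and 2.53 CPM in DMSO D6 libraries. All Torin libraries exceeded all DMSO libraries, and the 3 DMSO libraries were spread more widely relative to their mean. The log2 fold change was 2.06 (SE 0.29; adjusted p = 0.000186 in edgeR's quasi-likelihood test), a 4.16-fold rise.

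In the D12 arm Upk1b had 3.35, 3.71 and 2.31 CPM in Torin libraries, against 1.14, 1.45 and 0.957 CPM in DMSO libraries. The groups did not overlap, and the log2 fold change was 1.39 (SE 0.30; adjusted p = 0.00531 in edgeR's quasi-likelihood test), a 2.63-fold rise. The rises in the arms were not shown to differ, the difference D12 minus D6 being −0.66 (95% interval −1.48 to 0.15; adjusted p = 0.362, same test). The DMSO groups overlapped, with a log2 difference, DMSO D12 over DMSO D6, of −0.61 (SE 0.31; adjusted p = 1, same test).

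No change of Upk1b was detected under estradiol, where its counts were low. Estradiol libraries had 16, 10 and 10 counts, against 12, 7 and 11 counts in ethanol libraries. The groups overlapped, and the log2 fold change was 0.30 (95% interval −0.51 to 1.11; adjusted p = 0.609 in edgeR's quasi-likelihood test).

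The count of Upk1b per count of Upk3a therefore differed between every treated group and its vehicle. It was 1.33, 1.67 and 0.769 in estradiol libraries, against 0.075, 0.0483 and 0.0902 in ethanol libraries. It was 3.12, 3.62 and 2.06 in Torin D6 libraries, against 0.0365, 0.0582 and 0.0795 in DMSO D6 libraries. In the D12 arm it was 0.524, 0.705 and 0.357 in Torin libraries, against 0.0391, 0.0521 and 0.0349 in DMSO libraries. All treated libraries lay above all vehicle libraries of their comparison, and the 9 vehicle libraries of both experiments stayed within 0.0349 to 0.0902. The ratio is not corrected for length and serves only to compare groups. Under estradiol the counts of Upk1b overlapped between the groups, and those of Upk3a did not.

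**Figure D2:**
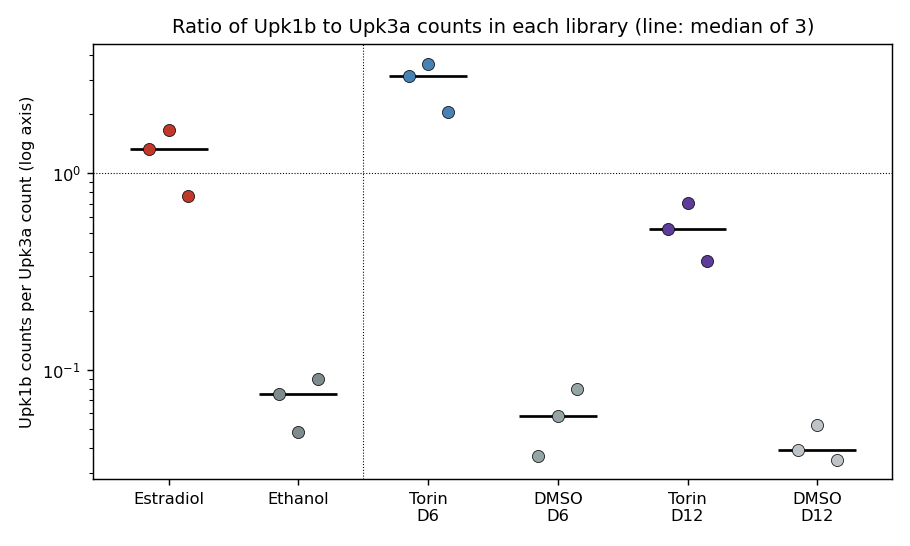
Counts of Upk1b per count of Upk3a in each library on a log axis; points are libraries, lines the median of 3, and the dotted vertical line separates the experiments. The vehicle libraries lie between 0.0349 and 0.0902 and the treated libraries between 0.357 and 3.62.

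The summed level of the 5 uroplakins was lower in each treated group than in its vehicle group, with no overlap. It was 1.38 to 2.11 CPM in estradiol organoids, against 7.0 to 8.01 CPM in ethanol organoids. It was 10.8 to 11.4 CPM in Torin D6 organoids, against 31.5 to 34.8 CPM in DMSO D6 organoids, and 9.44 to 10.3 CPM in Torin D12 organoids, against 28.5 to 30.8 CPM in DMSO D12 organoids. Upk3a made up 20 to 36.1% of the uroplakin counts in estradiol libraries and 84.7 to 86.5% in ethanol libraries. It made up 19.7 to 30.2% in Torin D6 libraries, 91.4 to 94.8% in DMSO D6 libraries, 55.8 to 68.5% in Torin D12 libraries and 92.5 to 96.1% in DMSO D12 libraries. The lower sums thus mostly restate the fall of Upk3a and do not describe the other uroplakins, of which Upk1b rose in both Torin arms. The sum is not corrected for length and serves only to compare groups. The share of Upk3a and the summed level both lay apart between the 2 Torin groups, the share lower and the sum higher in Torin D6, and neither was tested between arms.

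Upk2, which pairs with Upk1a, was near the limit of what these libraries could resolve. Torin D6 libraries had 16, 16 and 16 counts, against 9, 6 and 10 counts in DMSO D6 libraries. The groups did not overlap, but the difference did not pass edgeR's quasi-likelihood test (log2 0.82, SE 0.64, adjusted p = 0.344). In D12 Torin libraries had 8, 6 and 19 counts, against 5, 16 and 1 counts in DMSO libraries, which overlapped (log2 0.59, SE 0.67, adjusted p = 0.578). Under estradiol, where Upk2 was below the filter, there were 16, 9 and 5 counts, against 7, 10 and 9 counts with ethanol, a ratio of 1.2 with a 95% counting interval of 0.683 to 2.10.

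Upk1a, the partner of Upk2, was below the filter in both experiments and was not tested. Torin D6 libraries had 10, 11 and 6 counts, against 5, 1 and 3 counts in DMSO D6 libraries. These groups did not overlap, and the ratio was 2.76 with a 95% counting interval of 1.26 to 6.66, which leaves out the spread between libraries. Torin D12 libraries had 5, 6 and 0 counts, against 9, 6 and 3 counts in DMSO D12 libraries, a ratio of 0.621 (0.265 to 1.39). Estradiol libraries had 3, 5 and 8 counts, against 6, 8 and 2 counts in ethanol libraries, a ratio of 1.04 (0.485 to 2.21), and in both of these comparisons the groups overlapped.

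Upk3b, the other partner of Upk1b and the uroplakin known from mesothelium, was at or under the floor in every group. The only counts were 1 in the first Torin D12 library and 1 in the second DMSO D12 library. A count of 0 in 3 libraries allows up to 3 counts, or 0.0470 CPM in estradiol, 0.0434 CPM in ethanol, 0.0366 CPM in Torin D6 and 0.0394 CPM in DMSO D6 organoids. No fold is given.

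Under estradiol 3 of the 4 tested genes were lower (Msln, Muc16, Upk3a) and 0 were higher, where 34% of all tested genes were called with 17.4% higher and 16.6% lower. DESeq2 called 2 lower and 0 higher, since Muc16 lost its call (DESeq2 adjusted p = 0.121), and none was higher at an unadjusted p under 0.05. With Torin in D6, 2 of 5 rose (Msln, Upk1b) and 1 fell (Upk3a), where 39.1% of all tested genes were called, 19.8% higher and 19.3% lower. In D12, 1 of 5 rose (Upk1b) and 2 fell (Msln, Upk3a), where 25.4% were called, 10.8% higher and 14.6% lower. The Torin effect differed between arms for 2 of 5, being lower in D12 for Msln and higher for Upk3a, where 10.6% of all tested genes were called, 5.55% lower and 5.03% higher. Between the DMSO groups edgeR called 0 of 5, where 0.00552% were called; 1 of the 5, Msln, had an unadjusted p under 0.05, and DESeq2 called 0.

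The groups of 2 of the 4 tested genes did not overlap under estradiol, 4 of 5 in Torin D6, 3 of 5 in Torin D12 and 2 of 5 between the DMSO groups. Over all tested genes these shares were 46.4%, 48.5%, 43.7% and 12.2%. The Torin D12 difference and the difference between arms use the same libraries as the comparisons beside them, and the values are set side by side only.

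**Figure D3:**
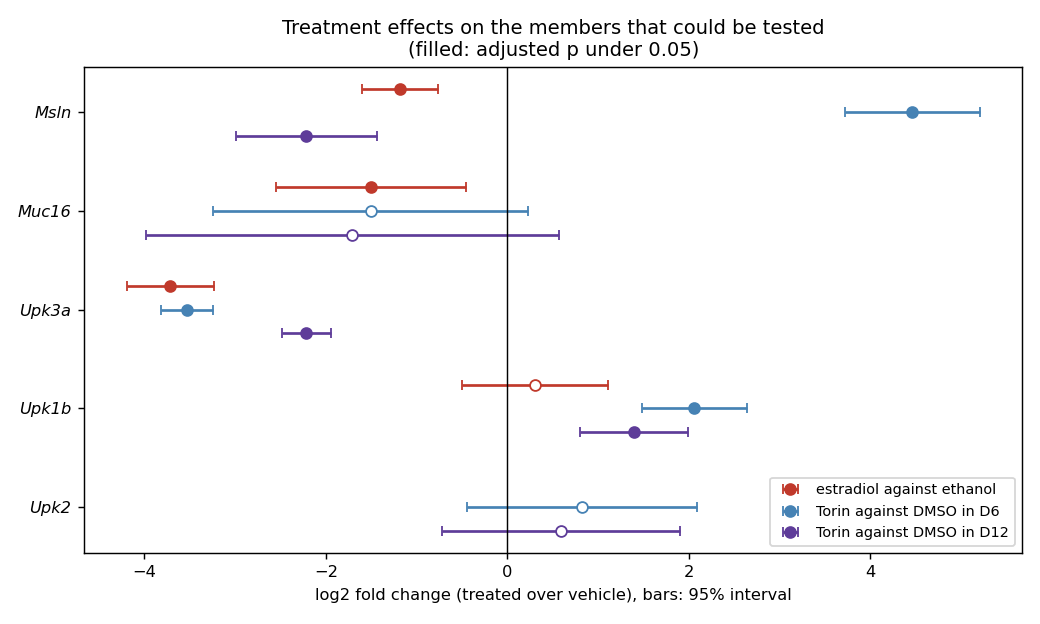
Log2 fold changes, treated over vehicle, of the genes that passed the filter, with bars of the 95% interval; filled points have an adjusted p under 0.05. Msln stands at 4.46 in Torin D6 and −2.22 in Torin D12, while Upk3a is below 0 in all 3 comparisons, at −3.72, −3.53 and −2.22.

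The deposited normalized values carry a further factor that differs between genes of a library. Relative to the median gene of its library this factor stayed within 0.994 to 1.01 for Upk3a and Upk2 and within 0.996 to 1.00 for Upk1a, each of which has 1 transcript in GENCODE M21. It ranged from 0.824 to 1.07 for Upk1b, with 2 transcripts, from 0.465 to 1.37 for Msln, with 9 transcripts of 288 to 2165 bases, and from 0.333 to 5.44 for Muc16, with 4 transcripts of 1035 to 25437 bases. The widest factors were those of Msln and Muc16, the genes with the most annotated transcripts, but the width did not follow the number of transcripts. Muc16 also had few counts, and the cause was not tested.

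On those deposited values Msln had 1023, 921 and 692 normalized counts in Torin D6 libraries, against 50.3, 52.8 and 47.1 in DMSO D6 libraries. In D12 it had 15.7, 24.1 and 35.4 normalized counts in Torin libraries, against 81.1, 58.9 and 110.2 in DMSO libraries. The separation of the groups was the same as on counts. Over all alternatives tried, the log2 fold change of Msln stayed within 4.09 to 4.58 in D6 and −2.98 to −1.69 in D12.

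**Figure D4:**
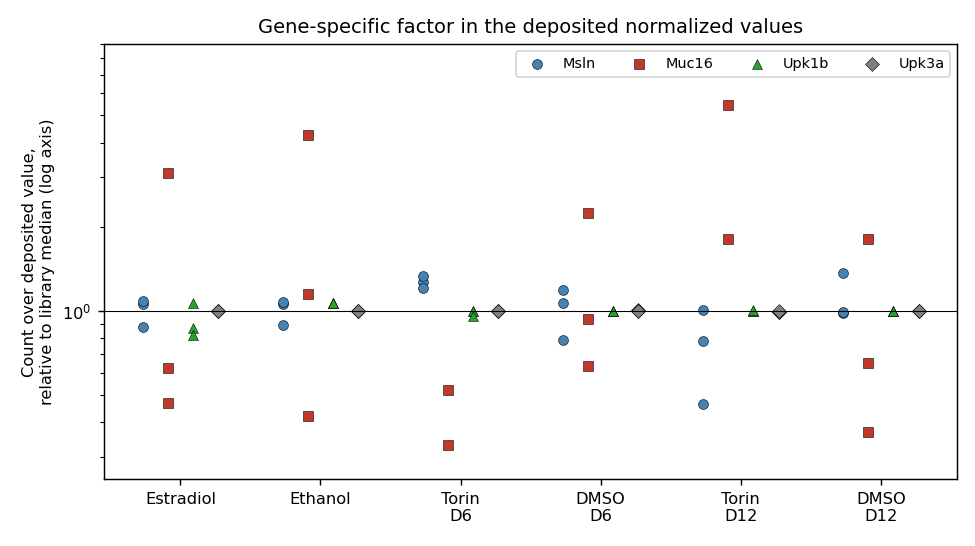
Count divided by the deposited normalized value, relative to the library median, on a log axis, for libraries with a count above 0. Upk3a lies at 1 throughout, Msln between 0.465 and 1.37, and Muc16 between 0.333 and 5.44.

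By the likeness rule, genes most like each member were taken over the 12 Torin libraries by Pearson correlation of log2 CPM, a description that rests on differences between 4 groups. Closest to Msln were Gabrp, a subunit of a GABA receptor (r = 0.986), Ttc39b (r = 0.983) and Rgs16, a regulator of G protein signalling (r = 0.977). Gabrp averaged 275 CPM in Torin D6, 126 CPM in DMSO D6, 103 CPM in Torin D12 and 144 CPM in DMSO D12 organoids, the same order by arm as Msln with a smaller span. The likeness rule used no estradiol library, and under estradiol, where Msln fell, Rgs16 rose (log2 0.65, SE 0.11; adjusted p = 0.00037 in edgeR's quasi-likelihood test) and Ttc39b rose (0.51, SE 0.04; adjusted p = 7.81e-07), while Gabrp was at 0.08 and did not pass (SE 0.05; adjusted p = 0.187).

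Closest to Upk3a were Rab17, a small GTPase of epithelial membrane traffic (r = 0.996), Cd164l2 (r = 0.994) and Fbln1, an extracellular matrix protein (r = 0.993). Rab17 averaged 4.37 CPM in Torin D6, 26.1 CPM in DMSO D6, 7.93 CPM in Torin D12 and 27.3 CPM in DMSO D12 organoids. It also fell under estradiol, to a mean of 4.77 CPM, against 12.9 CPM with ethanol (log2 −1.44, SE 0.11; adjusted p = 1.2e-07 in edgeR's quasi-likelihood test). Cd164l2 (log2 −0.56, SE 0.13) and Fbln1 (−0.48, SE 0.06) fell under estradiol too, each by less than the −3.72 of Upk3a, a difference between genes that was not tested. Closest to Upk1b were Rbm12 (r = 0.975), Ica1 (r = 0.962) and the integrin subunit Itgb8 (r = 0.961). Under estradiol, where Upk1b did not pass, Rbm12 rose by 0.18 (SE 0.06), Itgb8 rose by 0.51 (SE 0.06), and Ica1 did not pass (0.08, SE 0.15). These estradiol calls of genes like Msln, Upk3a and Upk1b stand beside 34% of all tested genes called, 17.4% higher and 16.6% lower.

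Among relatives of the family, 1 of 4 genes (Mslnl, Otoa, Strc, Upk3bl) could be tested in each experiment. Upk3bl, a relative of Upk3b, rose in Torin D6 organoids to 75 counts over 3 libraries, against 5 counts in DMSO D6 organoids (log2 3.71, SE 0.65, adjusted p = 0.000807 in edgeR's quasi-likelihood test). In D12 it had 19 counts with Torin and 11 with DMSO and did not pass (log2 0.79, adjusted p = 0.416), and the difference between arms did not pass (adjusted p = 0.0731). Otoa, a relative of mesothelin in the inner ear, did not pass under estradiol (log2 1.05, SE 0.45, adjusted p = 0.0846).

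Of 10 other mucin genes 4 could be tested in each experiment, and those called fell. Torin lowered Muc1, the main epithelial surface mucin, Muc15 and Muc20 in both arms: the log2 fold changes were −2.85, −3.0 and −1.43 in D6 and −1.36, −1.51 and −1.21 in D12, and 0 rose by edgeR, by DESeq2 or at an unadjusted p under 0.05. The median log2 fold change of the tested mucins was −2.14 in D6 and −1.28 in D12, against 0.05 and 0.01 over all tested genes. The fall was smaller in D12 for Muc1 (log2 difference D12 minus D6 1.50, SE 0.26) and Muc15 (1.49, SE 0.18), as it was for Upk3a. Under estradiol 1 of 4 fell, Muc15 (log2 −0.37, SE 0.05, adjusted p = 3.08e-05 in edgeR's quasi-likelihood test), 0 rose, and the list median was −0.34. Of all tested genes 39.1% were called in Torin D6, 25.4% in Torin D12, 10.6% for the difference between arms and 34% under estradiol.

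All 8 transcription factors of the urothelial list were tested. Pparg, the nuclear receptor that drives uroplakin genes in urothelium, rose in all 3 comparisons, with log2 fold changes of 1.09 (SE 0.15) under estradiol, 1.08 (SE 0.28) in Torin D6 and 1.50 (SE 0.27) in Torin D12. Elf3, an epithelial ETS factor, fell in all 3, by 0.68, 0.56 and 0.71 on the log2 scale. Pparg moved in the opposite direction to Upk3a and, in both Torin arms, in the direction of Upk1b, while Elf3 moved in the direction of Upk3a. Whether either factor acts on these genes was not tested.

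Under estradiol 1 of these 8 factors rose and 3 fell, with Foxa1 and Klf5 both at −0.44 on the log2 scale beside Elf3. In Torin D6 4 rose and 2 fell, with Grhl3, a grainyhead factor of differentiating epithelia, at 2.02, Rxra, the partner of Pparg, at 0.68 and Gata3 at −0.87 as those with the lowest p. In Torin D12 3 rose and 1 fell, with Rxra at 0.65 and Trp63 at 0.45. The shares called over all tested genes were 34% under estradiol, 39.1% in Torin D6, 25.4% in Torin D12 and 10.6% for the difference between arms. The Torin effects differed between arms for Grhl3 (D12 minus D6 −2.45, SE 0.49), Klf5 (−1.25), Gata3 (0.86) and Trp63 (0.64), but the number called for the difference fell to 1 or 2 without any 1 of 9 of the 12 libraries (all but the third Torin D12 and the second and the third Torin D6). The list medians were −0.13, 0.66 and −0.03 in estradiol, Torin D6 and Torin D12, against −0.01, 0.05 and 0.01 over all tested genes.

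Of 11 genes known from the traffic of uroplakin vesicles 9 were tested. Mal, a membrane protein of apical transport in epithelia, rose under estradiol (log2 1.12, SE 0.15) and in Torin D6 (1.55, SE 0.15), and did not pass in D12 (0.43, SE 0.15, edgeR adjusted p = 0.051). Rab27b, a GTPase that docks uroplakin vesicles, fell in Torin D6 (−0.87, SE 0.09), and the falls in D12 were those of Rab11a (−0.44) and the motor Myo5b (−0.73). Vps33a rose in all 3 comparisons, by 0.22, 0.56 and 0.51, and Vamp8 rose by 0.21 under estradiol. In all, 4 rose and 1 fell under estradiol, 3 rose and 2 fell in Torin D6, and 1 rose and 2 fell in Torin D12. Over all tested genes 34%, 39.1% and 25.4% were called in these comparisons, and 10.6% for the difference between arms. The Torin effect differed between arms for Mal (D12 minus D6 −1.12), Myo5b (−0.91) and Rab27b (0.61). The list medians of 0.10, 0.10 and −0.07 lay near those of all tested genes.

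Of 29 other tetraspanins, relatives of Upk1a and Upk1b in membrane topology, 23 were tested with estradiol and 25 with Torin. Under estradiol 5 rose and 8 fell, with Tspan5 at −0.41, Tspan14 at −0.25 and Tspan13 at 0.68 on the log2 scale. In Torin D6 3 rose and 9 fell, led by Tspan8 (−2.35, SE 0.09), Cd82 (−1.03) and Tspan14 (−0.53), and in D12 3 rose and 7 fell, with Cd82 at −0.99, Tspan6 at 0.85 and Tspan14 at −0.37. The Torin effect differed between arms for Tspan8 (D12 minus D6 2.24, SE 0.12), Tspan12 (1.03), Tspan2 (0.75) and Cd9 (−0.41). The number called for the difference was 2 without the first or the third DMSO library of either arm, the first or the second Torin D12 or the first Torin D6 library, and 7 without the third Torin D6 library. The list medians were −0.05, −0.16 and −0.14. Of all tested genes 34% were called under estradiol, 39.1% in Torin D6, 25.4% in Torin D12 and 10.6% for the difference between arms.

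**Figure D5:**
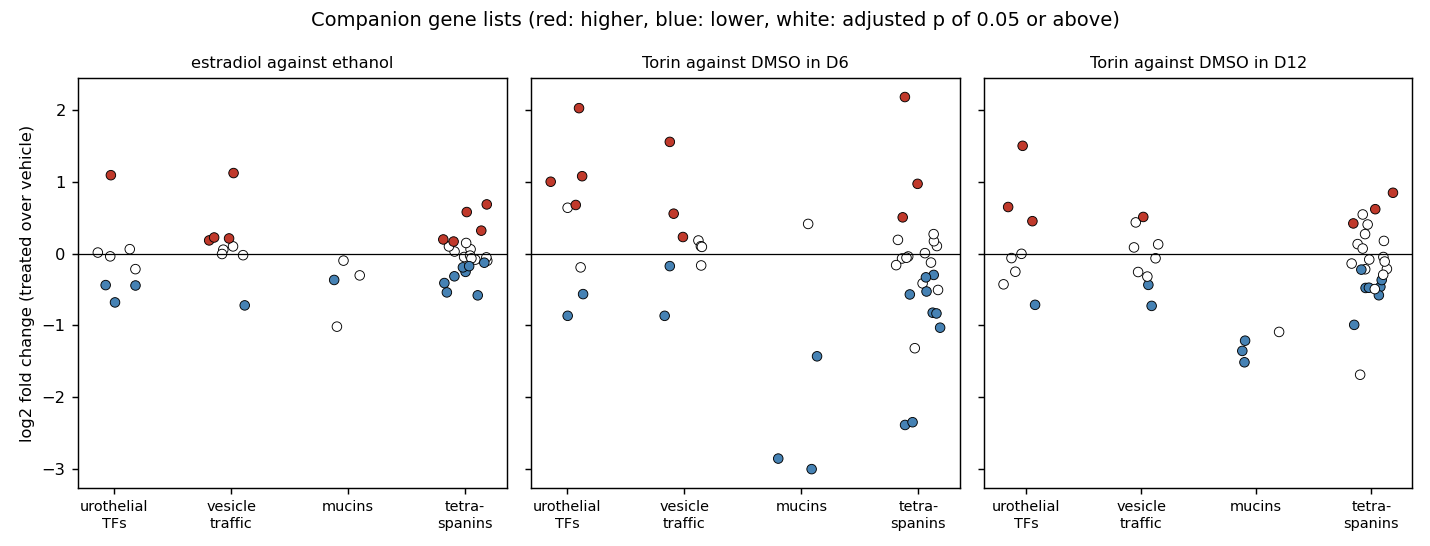
Log2 fold changes, treated over vehicle, of the tested genes of 4 companion lists in 3 comparisons; red points are called higher and blue points lower at an adjusted p under 0.05. Pparg is at 1.09, 1.08 and 1.50 in the 3 panels, and the 3 called mucins of the Torin panels lie between −3.0 and −1.21.

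Of the 8 mesothelial markers, the defining Wt1 had 4 to 10 counts and Lrrn4 1 to 8 counts over the 3 libraries of a group, and Calb2 had 0 counts in all 18 libraries. A pair of the markers stood well above 0. Bnc1, a zinc finger factor that keratinocytes also express, averaged 53.3 CPM in estradiol and 36.1 CPM in ethanol organoids, 21.2 CPM in Torin D6 and 25.2 CPM in DMSO D6, and 28.8 CPM in Torin D12 and 23.0 CPM in DMSO D12 organoids, and was called with estradiol alone (log2 0.56, SE 0.05). Aldh1a2, an enzyme of retinoic acid synthesis, fell to 3.73 CPM in Torin D6, against 20.1 CPM in DMSO D6 organoids (log2 −2.43, SE 0.25; adjusted p = 1.53e-05 in edgeR's quasi-likelihood test), the opposite direction to Msln. In D12 it averaged 13.1 CPM with Torin and 12.7 CPM with DMSO, and it did not pass there or with estradiol. The summed mesothelial list was 20.4 to 32.1 CPM in Torin D6, where Msln was highest, against 43.5 to 47.0 CPM in DMSO D6 organoids. It was 39.5 to 46.4 CPM in Torin D12, against 34.6 to 37.8 CPM in DMSO D12, and 56.0 to 59.2 CPM in estradiol, against 38.6 to 39.5 CPM in ethanol organoids. Of the 5 umbrella cell markers, the defining Krt20 had 1 to 13 counts per group, and Pparg made up most of the summed level of 2.24 to 7.77 CPM.

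Other marker lists moved with the same treatments, and their part in the values above was not tested. The summed level of 6 luminal markers was 7218 to 8898 CPM in Torin D6, against 5045 to 6251 CPM in DMSO D6, and 4317 to 5464 CPM in Torin D12, against 6283 to 6670 CPM in DMSO D12 organoids, so the sum lay on the same side of its vehicle as Msln in each arm. The members were not uniform: in D6 3 rose, among them Krt8 and Krt18, and Krt19 fell to 332 CPM with Torin, against 681 CPM with DMSO, while in D12 none rose and 3 fell. Under estradiol, where Msln fell, 3 rose and 2 fell. The 6 fibroblast markers, one of which is Fbln1, summed to 223 to 249 CPM in Torin D6, against 728 to 1002 CPM in DMSO D6, and 554 to 753 CPM in Torin D12, against 746 to 852 CPM in DMSO D12 organoids. This is the direction of Upk3a in the Torin arms, with an overlap in D12. Under estradiol the fibroblast sum was 313 to 358 CPM, against 241 to 255 CPM in ethanol organoids, the opposite direction to Upk3a. These members were not uniform either: under estradiol 3 rose and 1 fell. The 1 that fell was Fbln1, at 27.7 CPM in estradiol, against 38.7 CPM in ethanol organoids. With Torin 6 of the 6 fell in D6, and 2 fell and 0 rose in D12. The 6 basal markers summed to 1469 to 1814 CPM in Torin D6, against 2140 to 2475 CPM in DMSO D6, and 1634 to 2116 CPM in Torin D12, against 2829 to 2903 CPM in DMSO D12 organoids. Krt5 fell in both arms, but 2 of the 6 rose in each, Acta2 and Oxtr in D6 and Trp63 and Oxtr in D12. Beside these counts, 39.1% of all tested genes were called in Torin D6, 19.8% higher and 19.3% lower. In Torin D12 the share was 25.4%, with 10.8% higher and 14.6% lower. Under estradiol it was 34%, with 17.4% higher and 16.6% lower.

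The 6 luminal progenitor markers summed to 3145 to 3286 CPM in Torin D6, against 4044 to 4635 CPM in DMSO D6, and 4124 to 4253 CPM in Torin D12, against 4314 to 4592 CPM in DMSO D12 organoids, no group overlapping its vehicle. The 8 squamous markers, led by Krt6a, summed to 709 to 787 CPM in estradiol, against 387 to 475 CPM in ethanol, and 53.6 to 93.4 CPM in Torin D12, against 199.9 to 267 CPM in DMSO D12 organoids, with overlap in D6. The 6 hormone sensing markers summed to 419 to 527 CPM in Torin D6, against 548 to 571 CPM in DMSO D6, and 369 to 397 CPM in Torin D12, against 451 to 520 CPM in DMSO D12 organoids. The 5 immune markers, led by Cd68, summed to 1.39 to 2.10 CPM in Torin D6, against 5.44 to 11.1 CPM in DMSO D6, and 1.71 to 1.96 CPM in Torin D12, against 7.61 to 11.4 CPM in DMSO D12 organoids, with overlap under estradiol. The 4 endothelial markers summed to 6.24 to 10.8 CPM in Torin D6, against 9.62 to 14.1 CPM in DMSO D6, and 5.31 to 7.98 CPM in Torin D12, against 8.76 to 11.5 CPM in DMSO D12 organoids, with overlap in D6 and under estradiol. The members of these lists were not uniform. In D6 1 luminal progenitor marker rose and 4 fell, and 2 hormone sensing markers rose and 3 fell. In D12 these numbers were 0 and 2, and 1 and 3. Of the 7 squamous markers tested 3 rose and 1 fell under estradiol, and 1 rose and 3 fell in D12. Of 2 immune markers tested 1 rose and 1 fell in D6, and 1 fell in D12. Over all tested genes 34% were called under estradiol, 39.1% in Torin D6 and 25.4% in Torin D12.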

How the data were processed

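RNA of 18 libraries in 6 groups of 3 was analysed, grouped by the sample labels. Per the submitters' processing notes, kallisto, DESeq2, Trim Galore, cutadapt, FastQC and MultiQC were used with the genome GRCm39; versions, roles and annotation are not given in the sources used here. The authors deposited estimated counts by Ensembl gene for estradiol, 24.0% of them not whole at a tolerance of 0.001, which were rounded here. For Torin the deposited counts are whole numbers by symbol. The normalized signal deposited by the authors, counts over factors that vary by gene as well as by library, served only in alternatives and for the factors described. How reads shared between transcripts or overlapping genes were assigned is not stated; Muc16 overlaps the RNA gene Gm25295 on the other strand in GENCODE M21. Muc16 lacked a symbol in the estradiol table and was matched through an identifier table.

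Each experiment was fitted in R 4.3.3 with edgeR 4.0.16 (filterByExpr, TMM scaling, quasi-likelihood test, Benjamini-Hochberg adjustment over 15358 and 18112 genes), with an adjusted p under 0.05 as the call. Standard errors of edgeR log2 values were taken back from the test, as the absolute log2 value over the square root of its F statistic. Intervals of log2 values are 1.96 of these standard errors. This normal rule gives narrower intervals than the quasi-likelihood test, so they are nominal 95% intervals. Low counts carry exact 95% conditional binomial intervals, and a count of 0 an upper limit of 3 counts. Intervals and limits cover counting error only where counts alone are given, and reads carry no molecular identifiers. The fit was tested on simulated data. The members, the lists and the tests were chosen with earlier results of these data known. Named genes are all members, every called gene of a companion list (the 3 lowest p where more than 4 were called) and the 3 genes most like each member. Candidates for likeness had a mean of at least 5 CPM, members at least 1 CPM, and log2 CPM was taken after adding 0.1. Each result was recomputed with DESeq2 1.42.0, with RLE scaling, without a filter, with 1 CPM required in 3 libraries, with a threshold of 0.01 on the adjusted p, with a minimum 2-fold change, with only the compared groups in the fit, with a replicate block, with limma 3.58.1 on log2 of the deposited values plus 1 (mean at least 10), with each library left out, and, added after seeing the data, with the gene factors as offsets. Promoter sequences came from RefSeq on GRCm38.p6, which matched 4 of the 7 members. The series text mentions further Torin samples beside these 12, not analysed here.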

Additional observations from a re-analysis of the deposited data

Results flagged for a closer look

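The Torin effect on Msln differed between the arms D12 and D6 by a test of the difference itself, −6.68 on the log2 scale (SE 0.54; adjusted p = 2.19e-05 in edgeR's quasi-likelihood test). It was higher in 3 of 3 Torin D6 libraries and lower in 3 of 3 Torin D12 libraries than in any DMSO library of the same arm.

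The Torin effect on Upk3a also differed between the arms, by 1.31 on the log2 scale (SE 0.19; adjusted p = 0.00122 in edgeR's quasi-likelihood test). It was lower in 3 of 3 Torin libraries of both arms, with a smaller fall in D12. Treatment length, start and batch tag of the arms cannot be told apart.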

How the results depend on the processing

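Of 387 values of the members under the alternatives, 371 kept their direction and their side of the threshold. Another 8 changed sign, all among values that passed no test in either setting: Upk2 D12 minus D6 was 0.12 with limma, against −0.23, and the other 7 came from leaving out a library (Muc16 D12 minus D6 −1.37 to 1.31, Upk2 D12 minus D6 −0.81 to 0.99, Upk2 DMSO D12 against DMSO D6 −1.53 to 0.20). The last 8 were those of Muc16 under estradiol, which lost its call. Its adjusted p was 0.121 with DESeq2, 0.284 with limma on the deposited values, 0.208 with gene-length factors as offsets and 0.0591 to 0.259 without the first or second ethanol or the first or the third estradiol library; with a threshold of 0.01 the call also ended. The cause was not tested. Leaving out each library in turn gave 2 to 3 members called under estradiol, 3 in Torin D6, 3 in Torin D12, 2 for the difference between arms and 0 between the DMSO groups. The number of all genes called moved by over 1.5 times with an adjusted p under 0.01 (3397 against 5220 under estradiol, 4586 against 7088 in Torin D6, 2733 against 4592 in Torin D12, 842 against 1917 for the difference between arms), with at least a 2-fold change (624, 2891, 1408 and 941), for the difference between arms without the third DMSO D6 library (1219), and between the DMSO groups (1 gene by edgeR, 13 by DESeq2, 4 with no filter, 16 with the 2 groups alone). Of 420 counts of called genes in the companion lists, 47 moved by over 1.5 times. Same-numbered libraries did not deviate together (21 correlations between −0.09 and 0.09). With groups of 3 libraries this cannot tell whether a shared number marks a shared animal or culture. With the replicate number as a block 4756 genes were called under estradiol, 6494 in Torin D6 and 4208 in Torin D12, and no call of a member changed. In simulated data, 2-fold changes were recovered for 92.6% of changed genes with estradiol (15134 genes) and 65.6% with Torin in D6 (17553 genes), and 4-fold changes for 100% and 98.0%. The simulation gave all genes of an experiment the same relative spread beyond counting error and changed far fewer genes than were called here. These rates therefore do not measure recovery in the real libraries. Upk1a, Upk2, Upk3b and Muc16 were limited by their counts.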

Other observations

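The promoter windows of 3 other members, Upk1a, Upk3b and Muc16, were searched for the same motifs in the same way. GGTCA, a half-site of nuclear receptors, occurred 2 times in Upk1a and 1 time in Upk3b, and CACCC, a motif of KLF factors, occurred 2 times in Upk1a, 2 times in Upk3b and 1 time in Muc16. CATTCC, the TEAD motif, occurred 1 time, in Upk3b. None of these 3 windows held GGGCGG, nor the E-box, AP-1 or grainyhead motifs.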
